A study of Mus musculus with 15 samples.

Results

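The genes described here are the mouse members of 7 families of solute carriers (Slc genes) that move amino acids, neurotransmitters and related organic solutes across membranes: Slc1, Slc3, Slc6, Slc7, Slc36, Slc38 and Slc43. They were chosen by name alone, as every symbol that consists of one of these family names, the letter a and a number. The rule found 61 genes among the 46603 gene IDs counted: 19 in Slc6, 15 in Slc7, 11 in Slc38, 7 in Slc1, 4 in Slc36, 3 in Slc43 and 2 in Slc3. Of the 61, 37 had enough counts to be tested and 24 did not.

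Cells take up amino acids through several of these carriers at once, with overlapping substrates. Sodium-coupled carriers such as Slc38a2 and Slc1a5 bring in glutamine and other small neutral amino acids. Exchangers built from the heavy chain Slc3a2 and a light chain of the Slc7 family trade internal amino acids for leucine, cystine or others. Slc36a1, Slc38a7 and Slc38a9 work in the lysosome, where the amino acid supply is reported to the growth kinase mTORC1. Many genes of these families are known targets of ATF4, the transcription factor that is made when amino acids run short, and osteoblasts need the uptake of glutamine, proline and other amino acids to make the collagen of bone matrix. Other members carry solutes that are not used for protein: betaine (Slc6a12), taurine (Slc6a6), creatine (Slc6a8) or noradrenaline (Slc6a2).

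RNA was sequenced from embryonic fibroblasts of BALB/c mice. Their Actb genotype, for the cytoskeletal protein beta-actin, was wild type (WT below), heterozygous (HET) or knockout (KO). The cells came from embryos aged 10.5 days, and the labels call the end product osteoblasts. In every group, confluent cells on Matrigel were moved from DMEM to OsteoMax-XF, an osteogenic medium, with GlutaMAX (a stable source of glutamine), non-essential amino acids, dexamethasone and forskolin, the last pair at 5 mM each as the labels state it. The series asks how gene expression in the resulting cells differs between the genotypes. The 15 libraries form 5 groups of 3: KO and WT after 4 days in this medium, and KO, HET and WT after 14 days, called day 4 and day 14 below. No embryo, cell line, clone, culture or batch is named for a replicate, so p-values measure only the spread between these libraries, which may be technical. Genotype and any other difference between the cell populations cannot be told apart. In bulk RNA, fewer cells that hold a transcript and less of it per cell cannot be told apart either.

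Reads counted in genes ranged from 19878449 to 47486736 per library. Actb followed the labels, with a mean of 1181 CPM (CPM is a gene's count relative to the library's TMM-scaled total) in WT and 134 CPM in KO at day 4, and of 2996 CPM in WT, 1522 CPM in HET and 44.7 CPM in KO at day 14. HET replicate 2 stood apart: a chi-square comparison of its counts with those of the other HET libraries gave 50.1 and 50.4 per degree of freedom, against 2.89 between those other libraries, 5.02 to 18.6 within WT at day 14 and 2.15 to 2.99 within the other groups. For the 61 genes, log2 changes, numbers of genes called, mean shares and RPKM that rest on HET are therefore given with and without it. The mean CPM of Slc7a2 in HET, and ratios and raw counts of genes with few counts there, rest on all 3 libraries. Values of marker and list genes in HET rest on all 3 of its libraries. Of the 12 osteoblast markers listed, Runx2, Alpl, Col1a1, Col1a2, Spp1 and Phex were tested, and Sp7, Bglap, Bglap2, Ibsp, Dmp1 and Sost had at most 25 counts in any group of 3 libraries. Of the 6 tested, 4 were higher and 2 lower in KO than in WT at day 4 (35.7% and 33.8% of all genes). At day 14, 2 were higher and 2 lower (30.9% and 32.2% of all genes). Means in WT, HET and KO at day 14 were 0.310, 489 and 0.117 CPM for Col1a2, and 128, 8.29 and 32.0 CPM for Alpl. Smooth muscle markers differed between KO and WT: 5 of 6 were tested, and KO exceeded WT in all 5 on each day. The 6 summed to 2885 to 2919 CPM in KO against 2.44 to 2.86 CPM in WT at day 4, and to 533 to 556 CPM in KO, 78.7 to 91.8 CPM in HET and 31.7 to 35.6 CPM in WT at day 14. HET against WT held both directions, with 2 higher and 2 lower, against 28.3% and 29.9% of all genes. Acta2 gave most of the sum in HET (75.0 CPM, against 25.9 CPM in WT at day 14). Cnn1 and Myl9 lay below WT in HET (0.0175 against 0.358 CPM and 2.62 against 4.30 CPM). The 6 adipocyte markers, of which 2 were tested, summed to 81.8 to 85.6 CPM in KO and 16.2 to 19 CPM in WT at day 4. At day 14 they summed to 415 to 433 CPM in KO, 222 to 346 CPM in HET and 13.4 to 17.5 CPM in WT at day 14. Fabp4 gave most of that sum, and Adipoq, Plin1, Cidec and Lep had at most 4 counts in any group. The 6 macrophage markers, 3 tested, summed to 38.3 to 41.3 CPM in KO, 7.42 to 7.89 CPM in HET and 8.27 to 9.01 CPM in WT at day 14, mostly from Cd68, with Ptprc and Adgre1 at no more than 17 counts in any group. Of the 3, 1 was higher and 1 lower in KO than in WT at day 14, against 30.9% and 32.2% of all genes. Csf1r lay lower in KO (0.0566 CPM, 4 counts) than in WT (0.590 CPM, 38 counts) at day 14. Genes of the mitochondrial genome took 0.836% to 0.845% of counts in KO and 0.415% to 0.421% in WT at day 4. At day 14 the share was 1.08% to 1.12% in KO, 0.729% to 0.851% in HET and 0.484% to 0.542% in WT at day 14. The part of these markers and of the mitochondrial share in the results below was not tested.

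The 61 genes together took 0.762% ± 0.00567 of all counts in WT at day 4, the most of any group. Shares and CPM means are given as mean ± SD (n = 3 libraries), here and below. Log2 changes are given ± the standard error of the fit. The share was 0.395% ± 0.00150 in KO at day 4, 0.306% ± 0.0208 in WT at day 14, 0.296% ± 0.0352 in HET and 0.388% ± 0.00114 in KO at day 14. Every WT library of day 4 lay at 0.756% or above, and every other library at 0.396% or below. KO libraries of both days lay close together (0.387% to 0.396%), above all libraries of WT at day 14 (0.290% to 0.329%). HET replicate 2 had the lowest share of all 15 libraries, 0.256%, against 0.317% and 0.316% in the other HET libraries. Without it the mean share in HET was 0.317%, above the mean of 0.306% in WT at day 14 and within the range of its libraries. One gene, Slc38a2, supplied 25.9% to 26.6% of these counts in each library of day 4, of either genotype, and 14.6% to 19.2% in each library of day 14.

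**Figure D1:**
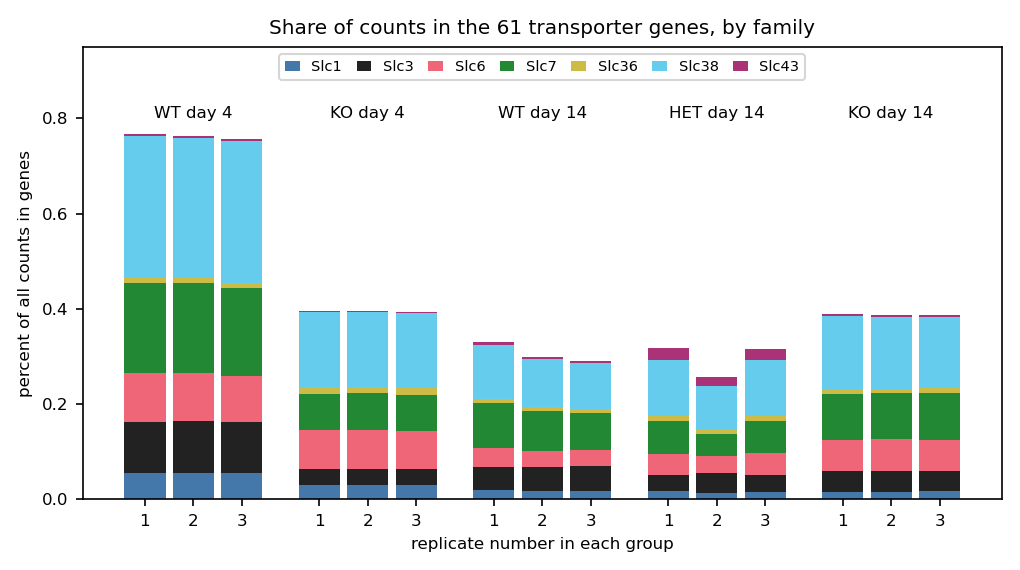
Share of all gene counts, in percent, that fell in the 61 transporter genes, as a bar for each of the 15 libraries, stacked by family. The 3 WT bars of day 4 reach 0.756% to 0.767%, and all other bars end at or below 0.396%.

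Per exon length, the highest of the 61 in WT at day 4 were Slc3a2 at 333 RPKM (CPM per kilobase of exon) and Slc38a2 at 244 RPKM, followed by Slc7a5 at 103, Slc1a5 at 90.6 and Slc7a1 at 86.6 RPKM. Slc3a2 was first in WT and HET at day 14 and in KO at day 14 (135, 106 and 119 RPKM), and Slc38a2 was first in KO at day 4 (116 RPKM). Slc38a10 was among the highest 6 in each group of day 14 (27.1 RPKM in WT, 56.8 in HET and 36.8 in KO) and in no group of day 4. Slc43a3 was among the highest 6 in HET only, at 40.4 RPKM. Without HET replicate 2 the means of HET were 97.3 RPKM for Slc3a2, still first, 56.9 RPKM for Slc38a10 and 43.8 RPKM for Slc43a3.

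**Figure D2:**
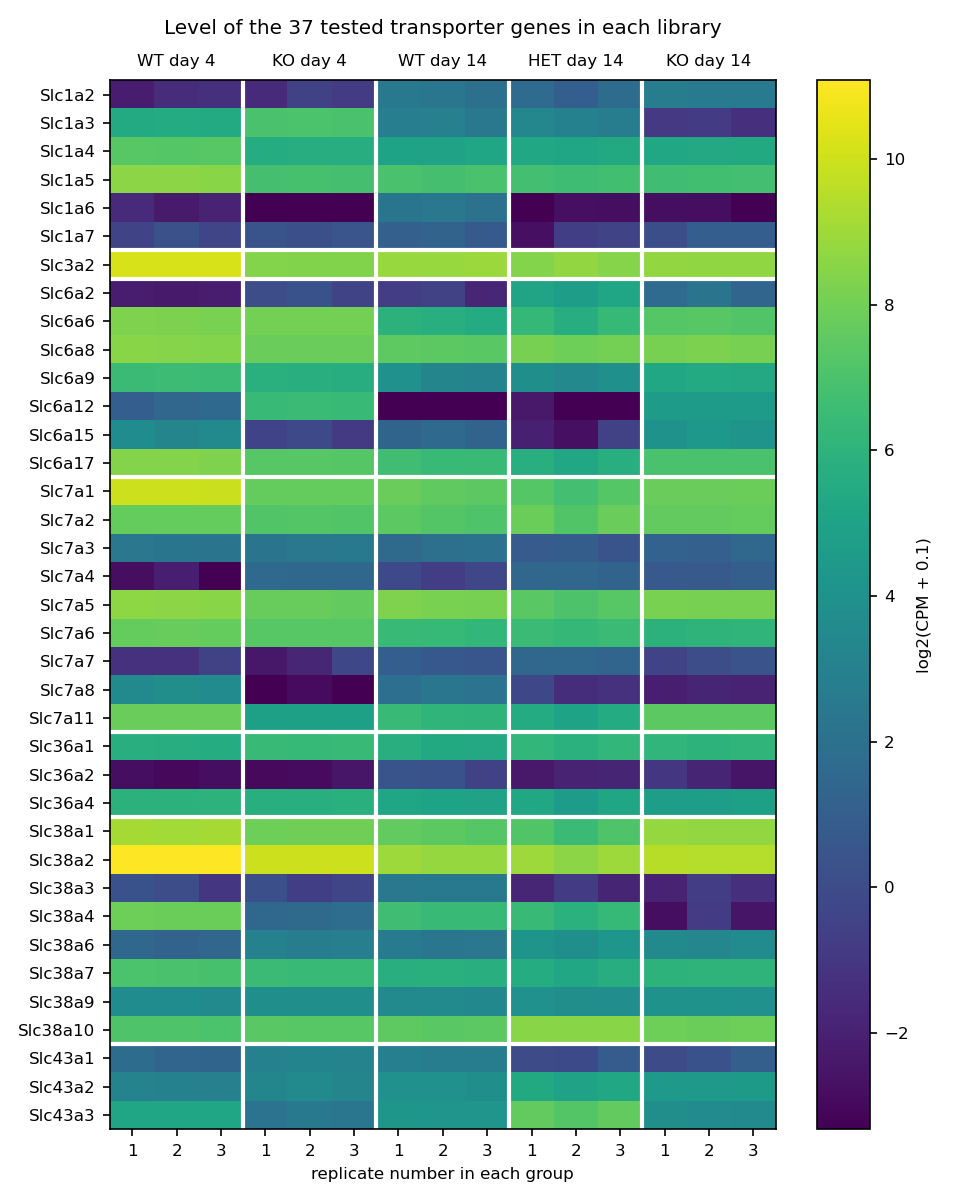
Level of each of the 37 tested genes (one line per gene, families split by white lines) in each of the 15 libraries (columns, 3 per group), as log2 of CPM plus 0.1. Slc38a2 in WT at day 4 (2154 to 2167 CPM) is the brightest field, and the darkest fields are genes at or near 0, such as Slc6a12 in WT at day 14.

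Of the 37 tested genes, KO had lower levels than WT for 19 and higher levels for 11 at day 4, and lower levels for 12 and higher levels for 19 at day 14. A gene counts as higher or lower where the edgeR quasi-likelihood test gave an adjusted p under 0.05. Over all 15296 genes tested, 69.5% were called at day 4 (35.7% higher, 33.8% lower) and 63.1% at day 14 (30.9% higher, 32.2% lower), so most genes of any kind were called. The median log2 change of the 37 genes was -0.36 at day 4 and 0.32 at day 14, against 0.03 and -0.02 over all genes. A 2-fold or larger called difference was found for 20 of the 37 at day 4 and 16 at day 14, against 28.4% and 21.2% of all genes. Since a gene could pass the filter on low counts through a single group, these counts and medians describe the 37 and support nothing further.

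The test of the interaction of genotype and day, which asks whether the log2 difference of KO from WT at day 14 differs from that at day 4, called 20 of the 37 genes higher and 7 lower, against 64.7% of all genes (30.7% higher, 34.0% lower). Since that share of all genes is close to that of the members, nothing is read from the number called. The 10 genes that were lower in KO at day 4 and higher at day 14 were Slc1a4, Slc6a8, Slc6a9, Slc6a15, Slc6a17, Slc7a2, Slc7a11, Slc38a1, Slc38a2 and Slc38a7, a pattern shown by 10.9% of all genes. Slc1a3 and Slc43a1 were higher in KO at day 4 and lower at day 14, as were 10.8% of all genes. A further 8 genes were higher in KO at both days and 7 were lower at both, against 12.5% and 12.3% of all genes. The counts by family are to be read against the 69.5% of all genes called at day 4 and 63.1% at day 14. The 7 tested Slc6 genes were all higher in KO at day 14, while at day 4 there were 2 higher and 4 lower. Slc7 had 1 higher and 6 lower of 9 at day 4, and 3 of each at day 14, and Slc38 had 3 higher and 4 lower of 8 at day 4, and 6 higher and 2 lower at day 14.

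**Figure D3:**
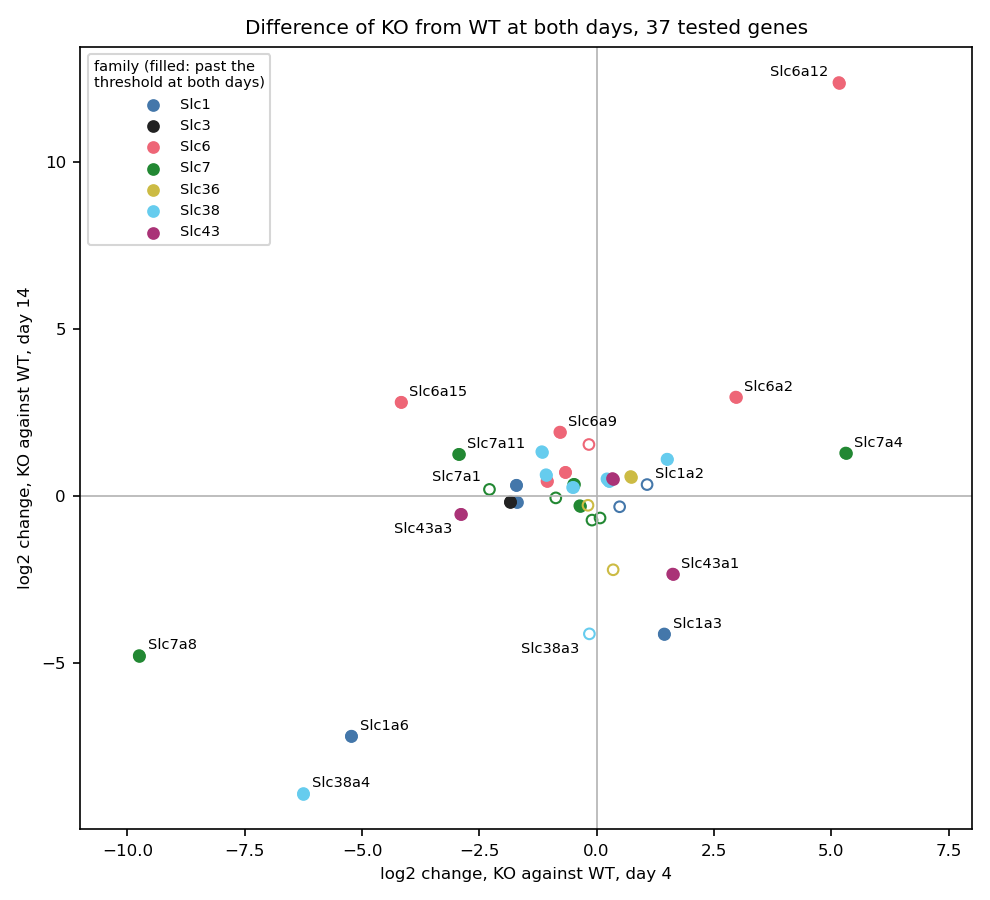
Log2 change of KO against WT at day 4 (x axis) and at day 14 (y axis) for the 37 tested genes, coloured by family and filled where the gene was called at both days. Slc7a11 and Slc6a15 sit in the upper left field (lower at day 4, higher at day 14) and Slc1a3 and Slc43a1 in the lower right field. The fitted positions of Slc6a12 and Slc1a6 depend on a small prior count, because a group of each had no counts.

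At day 14, HET differed from WT in 29 of the 37 genes, 12 higher and 17 lower, against 58.3% of all genes (28.3% higher, 29.9% lower). Without HET replicate 2, 16 of 38 tested members were higher and 16 lower, against 63.9% of all genes. KO differed from HET in 27 of 37, 16 higher and 11 lower, against 59.5% of all genes (29.4% higher, 30.1% lower), and in 15 higher and 13 lower of 38 without HET replicate 2, against 60.5%. These comparisons and that of KO with WT at day 14 share libraries, so their values are given side by side below and not as independent results. The median log2 change of the 37 was -0.0027 for HET against WT and 0.16 for KO against HET, against -0.02 and -0.01 over all genes. Without HET replicate 2 the medians were 0.14 and 0.11 over the 38 members then tested, against -0.04 and -0.0060 over all genes.

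From day 4 to day 14, most of the 37 genes fell in WT, and about as many rose as fell in KO. In WT 23 fell and 12 rose, against 34.9% and 39.7% of all genes (74.6% called in all). In KO, 17 fell and 16 rose, against 30.1% and 30.8% of all genes (60.9% called in all). The median log2 change was -0.99 in WT and 0.16 in KO, against 0.08 and 0 over all genes. A 2-fold or larger called change was found in 28 of the 37 in WT and in 16 in KO, against 34.2% and 20.7% of all genes.

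Slc7a11 encodes xCT, the light chain that imports cystine, the source of cysteine for glutathione, in exchange for glutamate. It had one of the largest swings between the days. Since Slc7a11 is a known ATF4 target, its promoter is shown first: the 250 bases before its start in RefSeq (GRCm38.p6, chr3:50443614-50443863, minus strand, 5′ to 3′), in which capitals mark both copies of the CEBP-ATF response element TGATGNAA found on either strand.
Slc7a11 promoter: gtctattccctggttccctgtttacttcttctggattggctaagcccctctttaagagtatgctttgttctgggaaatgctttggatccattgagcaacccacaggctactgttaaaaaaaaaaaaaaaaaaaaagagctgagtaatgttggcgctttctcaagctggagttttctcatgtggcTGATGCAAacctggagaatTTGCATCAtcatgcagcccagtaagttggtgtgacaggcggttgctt
The copies start 66 and 47 bases before the start, on opposite strands. TGATGNAA was found in 3.97% of 32851 promoters of 300 bases (250 before the start and 50 after it), and in 5 of the 64 promoters that matched 43 of the 61 genes, namely those of Slc7a11, Slc1a4, Slc7a7 and Slc6a21. A match of letters is a description and shows no binding.

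Slc7a11 (chr3:49892526-50443614, GRCm38) stood at 219.7, 219.9 and 225 CPM in WT and 28.7, 28.5 and 29.3 CPM in KO at day 4, and at 84.0, 69.1 and 64.8 CPM in WT, 46.2, 32.4 and 46.5 CPM in HET and 172, 173 and 172 CPM in KO at day 14. The WT libraries were the highest at day 4, the KO libraries the highest at day 14, and no group overlapped another. At day 4 KO was below WT, at -2.94 ± 0.11 (edgeR adjusted p = 2.25e-12) on the log2 scale, and at day 14 it was above WT, with 1.25 ± 0.11 (edgeR adjusted p = 7.4e-08). HET was lower than WT, with -0.80 ± 0.11 (edgeR adjusted p = 1.49e-05), or -0.65 without HET replicate 2. Within KO it rose from day 4 to day 14 by 2.58 ± 0.11 (edgeR adjusted p = 1.75e-11) on the log2 scale, while in WT it fell, with -1.61 ± 0.11 (edgeR adjusted p = 1.64e-09). The interaction was 4.19 ± 0.15 (edgeR adjusted p = 2.99e-12).

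Slc3a2, the heavy chain CD98 that carries Slc7a5, Slc7a6, Slc7a7, Slc7a8, Slc7a10 and Slc7a11 to the cell surface, was at its highest in WT at day 4. Slc3a2 (chr19:8706882-8723369, GRCm38) stood at 1173, 1188 and 1165 CPM in WT and 336, 323 and 329 CPM in KO at day 4, and at 462, 473 and 491 CPM in WT, 336, 431 and 351 CPM in HET and 428, 416 and 419.7 CPM in KO at day 14. All WT libraries of day 4 lay far above every other library. At day 14 KO and HET lay below WT, and HET replicate 2 lay above KO while the other HET libraries lay below it. KO was lower than WT at day 4, with a log2 change of -1.84 ± 0.07 (edgeR adjusted p = 2.82e-12). At day 14 the difference was small, -0.17 ± 0.07 (edgeR adjusted p = 0.0434), and it was not called with DESeq2 (adjusted p = 0.0637), with RLE scaling (edgeR adjusted p = 0.0578) or without any one of 5 of the 6 libraries (edgeR adjusted p from 0.0777 to 0.126). The interaction was 1.66 ± 0.10 (edgeR adjusted p = 7.99e-10). HET against WT gave -0.35 ± 0.07 (edgeR adjusted p = 0.000524), or -0.47 without HET replicate 2.

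Of the light chains, Slc7a11 was higher in KO at day 14 and Slc7a6 and Slc7a8 were lower. Slc7a5 (LAT1), which brings in leucine and other large neutral amino acids, stood at 395, 377 and 373 CPM in WT and 215, 211 and 200.3 CPM in KO at day 4, and at 311, 293 and 284 CPM in WT, 165, 132 and 165 CPM in HET and 290.1, 281 and 284 CPM in KO at day 14. KO lay below WT in every library at day 4, the 2 groups overlapped at day 14, and all HET libraries were below both. The log2 change of KO against WT was -0.87 ± 0.07 (edgeR adjusted p = 2.02e-08) at day 4, and at day 14 it was -0.05 ± 0.07, which did not pass the threshold (edgeR adjusted p = 0.541). HET was lower than WT, with -0.94 ± 0.07 (edgeR adjusted p = 1.87e-08), or -0.84 without HET replicate 2. Slc7a6, the light chain that exchanges cationic for neutral amino acids, was below its WT level in KO on each day, with log2 changes of -0.36 ± 0.06 and -0.29 ± 0.06. It fell with time in both genotypes, by 1.39 ± 0.06 in WT and 1.32 ± 0.06 in KO on the log2 scale.

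Slc7a8 (LAT2), a further light chain for neutral amino acids, was nearly absent in KO. Slc7a8 (chr14:54722209-54781946, GRCm38) stood at 11.5, 13.7 and 12.4 CPM in WT and 0, 0.0320 and 0 CPM in KO at day 4, and at 3.78, 4.87 and 4.39 CPM in WT, 0.766, 0.263 and 0.316 CPM in HET and 0.127, 0.183 and 0.158 CPM in KO at day 14. WT lay above KO in all libraries at both days, with HET in between at day 14. In KO at day 4 there was 1 count in the 3 libraries against 1324 in WT, a ratio of 1259 with a 95% counting interval of 226 to 49762. At day 14 the log2 change was -4.77 ± 0.47 (edgeR adjusted p = 4.93e-09) for KO and -3.26 ± 0.32 (edgeR adjusted p = 6e-08) for HET against WT (-3.01 without HET replicate 2). KO against HET was -1.51 ± 0.53 (edgeR adjusted p = 0.016), or -1.76 without HET replicate 2, and -0.89 with an edgeR adjusted p of 0.19 without HET replicate 1. The intervals cover counting error only.

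Among the light chains, Slc7a5 made up 61.7% of the summed RPKM of the 6 light chains in WT and 59.9% in KO at day 4, and 76.9% in WT, 64.9% in HET and 74.1% in KO at day 14. Slc7a11 made up 9.53% in WT and 2.20% in KO at day 4, and 5.03% in WT, 4.68% in HET and 11.9% in KO at day 14. Without HET replicate 2 these shares in HET were 65.2% for Slc7a5 and 4.88% for Slc7a11. The heavy chain's own RPKM was 333 against a light chain sum of 167 in WT at day 4, and 93.3 against 93.9 in KO at day 4.

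Cationic amino acid carriers of the Slc7 family take up arginine, lysine and ornithine. Slc7a1 (CAT-1), the widespread one (chr5:148327410-148399904, GRCm38), stood at 1009, 1010.4 and 977 CPM in WT and 204, 208 and 203 CPM in KO at day 4, and at 217, 190.5 and 175 CPM in WT, 154, 108 and 153 CPM in HET and 223, 218 and 229 CPM in KO at day 14. WT at day 4 lay far above the 4 other groups, and at day 14 every KO library lay just above every WT library. KO was lower than WT at day 4, at -2.28 ± 0.10 (edgeR adjusted p = 2.36e-11) on the log2 scale, and at day 14 the log2 change was 0.20 ± 0.10, which did not pass the threshold (edgeR adjusted p = 0.107). It passed without WT replicate 1 of day 14 (0.29, edgeR adjusted p = 0.0321), with all genes of at least 1 count fitted (0.24, edgeR adjusted p = 0.00121) and with only the compared groups fitted (0.19, edgeR adjusted p = 0.0227). The interaction was 2.48 ± 0.15 (edgeR adjusted p = 7.23e-10). HET was below WT, with -0.49 ± 0.11 (edgeR adjusted p = 0.000836), or -0.34 without HET replicate 2.

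Slc7a2 (CAT-2) supplies arginine to nitric oxide synthase in activated cells. Its mean was 204 ± 1.07 CPM in WT and 145 ± 2.74 CPM in KO at day 4, and 155 ± 18.8 CPM in WT, 195 ± 46.9 CPM in HET and 198 ± 6.04 CPM in KO at day 14. The HET libraries were split, with 226 and 218 CPM in replicates 1 and 3 and 141 CPM in replicate 2. KO against WT gave log2 changes of -0.49 ± 0.13 at day 4 and 0.35 ± 0.13 at day 14, both called, and the call at day 14 was lost without WT replicate 2 or 3 or KO replicate 3 of that day. KO against HET was 0.02 ± 0.13 with all libraries and -0.17 without HET replicate 2, where it passed the threshold (edgeR adjusted p = 0.0187). Slc7a3, a cationic carrier best known in brain, stayed between 1.26 and 5.50 CPM in all libraries and was lower in KO than in WT at day 14 (-0.65 ± 0.18) but not called at day 4. Slc7a4, an orphan relative whose exons overlap those of P2rx6, was higher in KO at both days, with log2 changes of 5.31 ± 0.57 at day 4, where WT had 7 counts in 3 libraries, and 1.29 ± 0.30 at day 14. Slc7a7, a light chain for cationic amino acids whose exons overlap Oxa1l, stayed under 3 CPM in all libraries and was not called between KO and WT at either day.

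**Figure D4:**
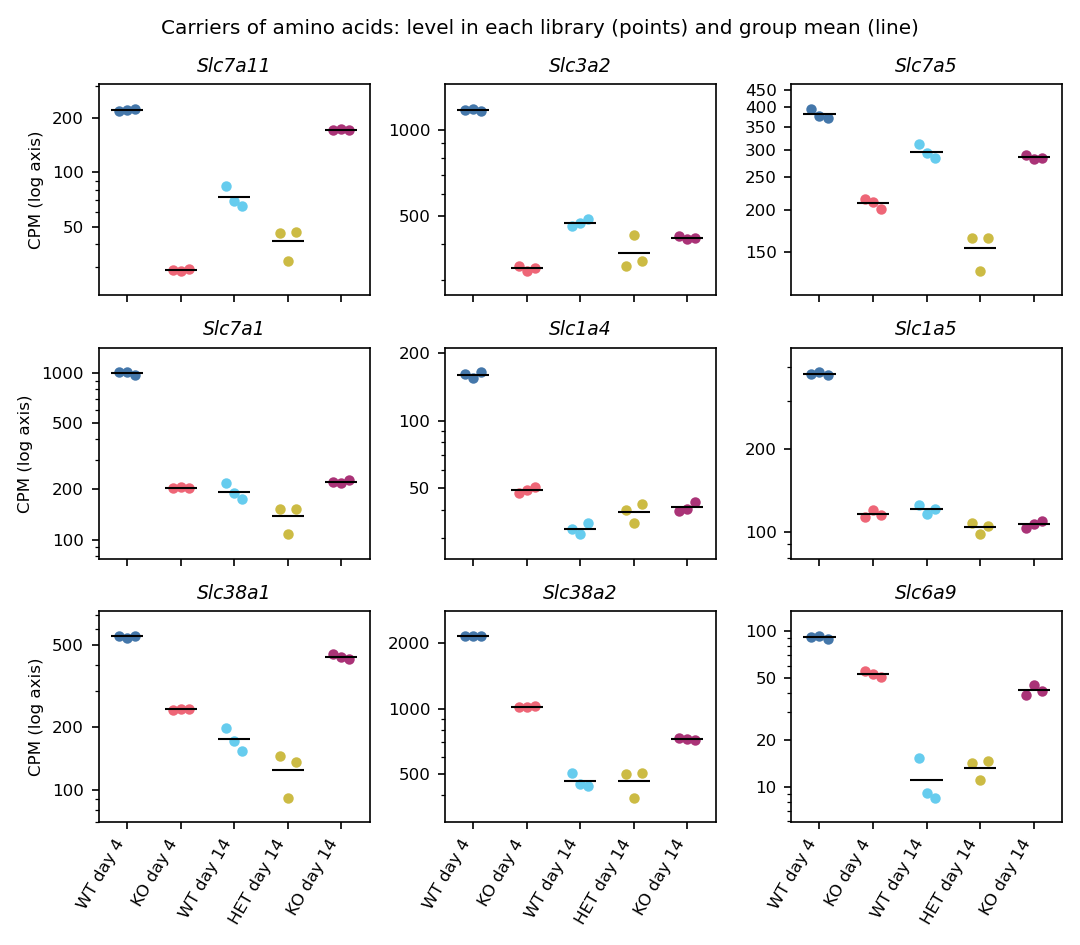
CPM on a log axis for 9 carriers of amino acids, with a point for each library and a line at the group mean. Slc7a11, Slc38a1, Slc38a2 and Slc6a9 are higher in KO than in WT at day 14, after being lower at day 4, while Slc7a1 and Slc7a5 in KO and WT come close together at day 14.

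In the Slc1 family, 2 genes exchange neutral amino acids and the others take up glutamate and aspartate. Slc1a5 (ASCT2), a main route for glutamine, stood at 377, 383 and 375 CPM in WT and 114, 119.8 and 115 CPM in KO at day 4, and at 125, 116 and 121 CPM in WT, 108, 97.8 and 105 CPM in HET and 103, 107 and 109.6 CPM in KO at day 14. WT at day 4 was high and all 4 other groups lay between 97.8 and 125 CPM. KO against WT gave a log2 change of -1.70 ± 0.05 (edgeR adjusted p = 8.97e-14) at day 4 and -0.18 ± 0.05 (edgeR adjusted p = 0.00554) at day 14. HET against WT gave -0.22 ± 0.05 (edgeR adjusted p = 0.00155), or -0.18 without HET replicate 2. The call of KO against WT at day 14 was lost when all genes with at least 1 count were tested (-0.14, edgeR adjusted p = 0.172), and that of HET against WT when only the groups compared were fitted (-0.20, edgeR adjusted p = 0.0621).

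Slc1a4 (ASCT1), which exchanges serine, alanine and cysteine (chr11:20302180-20332713, GRCm38), stood at 161, 156 and 165 CPM in WT and 47.5, 49.2 and 50.7 CPM in KO at day 4, and at 32.7, 31.1 and 34.9 CPM in WT, 40.1, 34.8 and 42.4 CPM in HET and 39.5, 40.5 and 43.4 CPM in KO at day 14. It too was high in WT at day 4, and at day 14 all KO libraries lay above all WT libraries. KO against WT was -1.71 ± 0.07 (edgeR adjusted p = 4.07e-12) at day 4 and 0.32 ± 0.07 (edgeR adjusted p = 0.00111) at day 14 on the log2 scale, with an interaction of 2.03 ± 0.10 (edgeR adjusted p = 7.87e-11). HET against WT was 0.25 ± 0.07 (edgeR adjusted p = 0.00799), or 0.33 without HET replicate 2, and with upper quartile scaling it was not called (0.17, edgeR adjusted p = 0.0567). Its promoter holds TGATGNAA on the opposite strand (TTGCATCA), near the start, in these 30 bases of chr11:20332699-20332728 (minus strand, RefSeq GRCm38.p6), with the element in capitals.
Slc1a4 promoter: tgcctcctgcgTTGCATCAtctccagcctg

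Slc1a3 (GLAST), a glutamate carrier best known from astrocytes, had the reverse order of days. Slc1a3 (chr15:8634124-8710764, GRCm38) stood at 45.0, 46.7 and 45.4 CPM in WT and 124, 126 and 122 CPM in KO at day 4, and at 7.14, 7.65 and 5.33 CPM in WT, 9.87, 7.99 and 6.63 CPM in HET and 0.423, 0.457 and 0.277 CPM in KO at day 14. The KO libraries were the highest of all at day 4 and the lowest of all at day 14, and HET and WT overlapped. At day 4 KO exceeded WT, at 1.44 ± 0.10 (edgeR adjusted p = 3.45e-09) on the log2 scale, and at day 14 it was below WT, with -4.12 ± 0.31 (edgeR adjusted p = 5.16e-10). Compared with WT, HET gave 0.28 ± 0.14 (edgeR adjusted p = 0.0959), which did not pass the threshold, or 0.29 without HET replicate 2. It passed without HET replicate 3 (0.42, edgeR adjusted p = 0.0151) and without WT replicate 2 of day 14 (0.39, edgeR adjusted p = 0.0446). From day 4 to day 14 the log2 change was -2.77 ± 0.12 in WT and -8.33 ± 0.31 in KO. The genotype-by-day interaction was -5.56 ± 0.33 (edgeR adjusted p = 2.6e-11). Of 5 listed astrocyte and oligodendrocyte markers 3 were tested, Aqp4 and Olig2 had at most 2 counts in any group, and the 5 summed to 4.71 to 5.63 CPM in KO and 2.61 to 2.97 CPM in WT at day 4, and to 8.30 to 9.15 CPM in KO, 3.45 to 3.92 CPM in HET and 4.90 to 5.51 CPM in WT at day 14. Their sum was higher in KO at both days, also at day 14, where Slc1a3 was lowest, and their part in this result was not tested.

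The other glutamate carriers were low. Slc1a2 (GLT-1) stood at 3.93 to 5.65 CPM in WT and 5.81 to 6.55 CPM in KO at day 14, and at 0.608 CPM or less at day 4. It rose with time in both genotypes, with log2 changes of 4.49 ± 0.40 in WT and 3.76 ± 0.32 in KO. KO against WT at day 4 (1.08 ± 0.46, edgeR adjusted p = 0.0417) rested on 45 counts in KO and 22 in WT and dropped to 0.69 (edgeR adjusted p = 0.212) without WT replicate 1. Slc1a6 (EAAT4), a glutamate carrier of Purkinje cells, had 306 counts in WT at day 14 (4.67, 5.33 and 4.25 CPM), 18 in WT at day 4, none in KO at day 4 and 2 each in HET and KO at day 14. It passed the filter on low counts through WT at day 14 alone, so its ratio is a description: WT at day 14 was 168-fold above KO (95% counting interval 46.2 to 1396). Slc1a7, a glutamate carrier known from retina, was lower in HET than in WT (-2.23 ± 0.49, or -2.40 without HET replicate 2), and was not called between KO and WT at either day.

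In the Slc38 family, Slc38a1, Slc38a2 and Slc38a4 form system A, which takes up alanine, glutamine and other small neutral amino acids with sodium. The 3 genes lie next to each other on chromosome 15, with 44.5 kb between Slc38a1 and Slc38a2 and 295 kb between Slc38a2 and Slc38a4. Slc38a2 (chr15:96687392-96699730, GRCm38), the member that responds to amino acid shortage and to hypertonic medium, stood at 2154, 2156 and 2167 CPM in WT and 1018, 1023 and 1028 CPM in KO at day 4, and at 506, 452 and 439 CPM in WT, 500.2, 389 and 504 CPM in HET and 733, 725 and 716 CPM in KO at day 14. WT was above KO in all libraries at day 4, KO was above WT and HET in all libraries at day 14, and HET replicate 2 was the lowest of all 15. KO against WT gave a log2 change of -1.08 ± 0.08 (edgeR adjusted p = 5.95e-09) at day 4 and 0.64 ± 0.08 (edgeR adjusted p = 4.36e-06) at day 14, and the interaction was 1.72 ± 0.11 (edgeR adjusted p = 2.21e-09). With time it fell by 2.21 ± 0.08 in WT and by 0.50 ± 0.08 in KO on the log2 scale. For HET against WT the value was -0.0027 ± 0.08 (edgeR adjusted p = 0.981), and 0.11 without HET replicate 2, where it passed the threshold (edgeR adjusted p = 0.028).

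Slc38a1 (SNAT1) stood at 554, 542 and 555 CPM in WT and 243, 247 and 245 CPM in KO at day 4, and at 199, 172 and 154 CPM in WT, 145, 91.4 and 136 CPM in HET and 451, 437 and 430.5 CPM in KO at day 14. At day 14 the KO libraries lay above all libraries of WT and HET, and above those of KO at day 4, and HET replicate 2 was again the lowest of the 15. The log2 change of KO against WT was -1.17 ± 0.12 (edgeR adjusted p = 3.86e-07) at day 4 and 1.33 ± 0.12 (edgeR adjusted p = 1.74e-07) at day 14. KO rose with time by 0.84 ± 0.12 (edgeR adjusted p = 2.02e-05) on the log2 scale, and WT fell, with -1.65 ± 0.12 (edgeR adjusted p = 6.54e-09). HET against WT was -0.50 ± 0.12 (edgeR adjusted p = 0.00281), or -0.32 without HET replicate 2, a value more than 1.5 times smaller. The call was lost when only the groups compared were fitted (-0.48, edgeR adjusted p = 0.0581).

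Slc38a4 (SNAT4), the third of the neighbours, was lower in KO at both days. Slc38a4 (chr15:96994820-97055956, GRCm38) stood at 241, 231 and 233 CPM in WT and 2.75, 3.04 and 3.47 CPM in KO at day 4, and at 99.9, 84.7 and 83.2 CPM in WT, 83.6, 58.8 and 81.5 CPM in HET and 0.0423, 0.457 and 0.0791 CPM in KO at day 14. KO lay far below WT in every library at both days, and HET overlapped WT. KO against WT gave log2 changes of -6.25 ± 0.17 (edgeR adjusted p = 6.04e-14) at day 4 and -8.89 ± 0.59 (edgeR adjusted p = 3.98e-13) at day 14, where KO had 13 counts in 3 libraries, 10 of them in replicate 2. The HET libraries against WT gave -0.26 ± 0.13 (edgeR adjusted p = 0.115), or -0.11 without HET replicate 2, neither called. The difference was called with upper quartile scaling (-0.34, edgeR adjusted p = 0.0379). It was also called with all genes of at least 1 count fitted (-0.23, edgeR adjusted p = 0.0188). The interaction was -2.64 ± 0.61 (edgeR adjusted p = 0.000174), and -4.15 without KO replicate 2 of day 14.

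Slc38a3 (SNAT3), a glutamine carrier of system N, was highest in WT at day 14. It stood at 1.12, 0.961 and 0.379 CPM in WT and 1.06, 0.544 and 0.715 CPM in KO at day 4, and at 5.32, 5.47 and 5.65 CPM in WT, 0.192, 0.473 and 0.180 CPM in HET and 0.169, 0.503 and 0.277 CPM in KO at day 14. WT at day 14 lay above every other library, and the 4 other groups were at 1.12 CPM or less. KO against WT was not called at day 4 (-0.15 ± 0.37, edgeR adjusted p = 0.725) and was -4.12 ± 0.46 (edgeR adjusted p = 2.94e-07) at day 14 on the log2 scale. Compared with WT, HET gave -4.29 ± 0.50 (edgeR adjusted p = 3.2e-07), or -4.85 without HET replicate 2.

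Among the Slc38 genes of the lysosome, Slc38a9, the arginine sensor that reports to mTORC1, differed little between groups. Slc38a9 stood at 13.0, 12.5 and 11.1 CPM in WT and 14.5, 14.3 and 14.1 CPM in KO at day 4, and at 11.3, 11.6 and 10.6 CPM in WT, 15.6, 13.8 and 13.5 CPM in HET and 16.1, 16.1 and 15.8 CPM in KO at day 14. KO lay above WT in all libraries at both days by a few CPM. The log2 change of KO against WT was 0.22 ± 0.08 (edgeR adjusted p = 0.0239) at day 4 and 0.52 ± 0.09 (edgeR adjusted p = 7.49e-05) at day 14, and the call at day 4 was lost in 5 of the alternatives tried, without WT replicate 3 of day 4 among them (0.15, edgeR adjusted p = 0.127). The interaction, 0.30 ± 0.12 (edgeR adjusted p = 0.0377), was not called without any one of 9 of the 12 libraries (edgeR adjusted p from 0.0504 to 0.0928) or with upper quartile scaling (0.16, edgeR adjusted p = 0.246). HET against WT was 0.36 ± 0.09 (edgeR adjusted p = 0.00224), or 0.38 without HET replicate 2. Slc38a7, which exports glutamine from lysosomes, went from lower in KO at day 4 (-0.51 ± 0.08) to higher at day 14 (0.26 ± 0.08). In HET the log2 change against WT was -0.24 ± 0.08 for Slc38a7, and without HET replicate 2 it was -0.12 and not called (edgeR adjusted p = 0.0508).

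Slc38a10 and Slc38a6, whose roles are less well defined, were highest in HET. Slc38a10 stood at 141, 141 and 128 CPM in WT and 166, 165 and 161 CPM in KO at day 4, and at 179, 167 and 175 CPM in WT, 369, 363 and 363 CPM in HET and 237, 233 and 239 CPM in KO at day 14. The HET libraries, replicate 2 included, lay above all others, and KO lay above WT at both days. The HET libraries exceeded WT by 1.07 ± 0.05 (edgeR adjusted p = 3.51e-11) on the log2 scale (1.07 without HET replicate 2), and KO against WT gave 0.26 ± 0.05 (edgeR adjusted p = 0.000117) at day 4 and 0.44 ± 0.05 (edgeR adjusted p = 7.84e-07) at day 14. Slc38a6 stood at 2.67, 2.34 and 2.61 CPM in WT and 7.91, 6.68 and 6.99 CPM in KO at day 4, and at 5.79, 5.01 and 5.19 CPM in WT, 17.2, 14.3 and 19.2 CPM in HET and 11.8, 10.2 and 12.3 CPM in KO at day 14. KO exceeded WT on each day, with log2 changes of 1.5 ± 0.14 (edgeR adjusted p = 6.06e-08) and 1.10 ± 0.13 (edgeR adjusted p = 2.22e-06), and HET exceeded WT, with 1.67 ± 0.13 (edgeR adjusted p = 1.85e-08, and 1.77 without HET replicate 2). Its promoter is the only one of the 64 that holds the full cyclic AMP response element TGACGTCA, found in 1.79% of all promoters, shown in capitals in these 30 bases of chr12:73286716-73286745 (plus strand, RefSeq GRCm38.p6). Forskolin, which raises cyclic AMP, was in the medium of every group.
Slc38a6 promoter: tcggaggctggTGACGTCAtcactgctggc

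Slc36 genes carry small amino acids with protons out of lysosomes or across the gut wall. Slc36a1 (PAT1), the lysosomal one (chr11:55204350-55236330, GRCm38), stood at 53.7, 49.9 and 48.9 CPM in WT and 85.8, 80.7 and 86.0 CPM in KO at day 4, and at 52.0, 43.6 and 40.9 CPM in WT, 75.5, 58.6 and 73.2 CPM in HET and 72.1, 63.6 and 68.9 CPM in KO at day 14. KO lay above WT in every library at both days, and so did HET at day 14. KO against WT gave log2 changes of 0.73 ± 0.10 (edgeR adjusted p = 4.95e-06) at day 4 and 0.59 ± 0.10 (edgeR adjusted p = 8.67e-05) at day 14, and the interaction was not called (-0.14 ± 0.14, edgeR adjusted p = 0.381). The HET libraries against WT gave 0.60 ± 0.10 (edgeR adjusted p = 7.17e-05), or 0.71 without HET replicate 2. The promoter of Slc36a1 is the only one of the 64 with the CLEAR-type element TCACGTGA, found in 0.974% of all promoters and known as the site of TFEB at lysosomal genes. It is in capitals in these 30 bases of chr11:55204325-55204354 (plus strand, RefSeq GRCm38.p6).
Slc36a1 promoter: gggagccagcaTCACGTGAcagggcccgga
Slc36a4, a high-affinity relative, was not called between KO and WT at either day (-0.18 ± 0.11 and -0.27 ± 0.12), although at day 14 it was called with upper quartile scaling (-0.32, edgeR adjusted p = 0.0274). Slc36a4 fell with time in both genotypes, by 0.90 ± 0.12 in WT and 0.99 ± 0.12 in KO on the log2 scale. Slc36a2, a carrier of kidney and muscle, passed the filter through WT at day 14 (64 counts in 3 libraries, against at most 15 in any other group).

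The Slc6 family holds sodium- and chloride-coupled carriers of neurotransmitters and osmolytes. Slc6a12 (BGT1) takes up betaine, an osmolyte, and also GABA. Slc6a12 (chr6:121343076-121365775, GRCm38) stood at 1.85, 2.62 and 2.99 CPM in WT and 82.5, 91.1 and 87.4 CPM in KO at day 4, and at 0 CPM in all 3 WT libraries, 0.0958, 0 and 0 CPM in HET and 24.5, 25.1 and 23.6 CPM in KO at day 14. Both KO groups lay above all other libraries, and no WT library of day 14 had a count, where 0 counts allow up to 0.0466 CPM (3 counts over the 3 libraries). At day 4 KO was 35.9-fold above WT (log2 change 5.16, edgeR adjusted p = 7.34e-13). At day 14 KO was at least 523-fold higher than WT, and 756-fold above HET (95% counting interval 209 to 6249), which had 2 counts, both in replicate 1. KO was higher than HET without HET replicate 2 too (edgeR adjusted p = 4.04e-17). In WT the level was at least 51.2-fold lower at day 14 than at day 4, and in KO it fell by 1.83 on the log2 scale (edgeR adjusted p = 7.56e-09). Its neighbour Slc6a13, 5.34 kb away, had at most 3 counts in any group.

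Slc6a6, the taurine carrier, another osmolyte gene, stood at 316, 306 and 286 CPM in WT and 274, 273 and 264 CPM in KO at day 4, and at 60.5, 51.2 and 47.2 CPM in WT, 78.1, 49.3 and 81.7 CPM in HET and 159, 159 and 145 CPM in KO at day 14. The day 4 groups lay close together with WT just above KO, and at day 14 KO was far above WT and HET in all libraries. KO against WT was -0.16 ± 0.13 at day 4 (edgeR adjusted p = 0.276), not called, and 1.54 ± 0.14 (edgeR adjusted p = 1.03e-07) at day 14 on the log2 scale. The small difference at day 4 was called with only the compared groups fitted (-0.18, edgeR adjusted p = 2.15e-08). It was also called with all genes of at least 1 count fitted (-0.18, edgeR adjusted p = 0.0416). The fall with time was -2.52 ± 0.13 (edgeR adjusted p = 1.75e-10) in WT and -0.81 ± 0.13 (edgeR adjusted p = 6.55e-05) in KO. HET against WT was 0.40 ± 0.14 (edgeR adjusted p = 0.0213), or 0.59 without HET replicate 2, and it was not called without any one of WT replicates 2 and 3 and HET replicates 1 and 3 (edgeR adjusted p from 0.0642 to 0.12). Slc6a8, the creatine carrier, stood at 361, 351 and 338 CPM in WT and 222, 221 and 221 CPM in KO at day 4, and at 183, 173 and 171 CPM in WT, 274, 239.6 and 269 CPM in HET and 281, 299 and 283 CPM in KO at day 14. KO lay below WT at day 4 and above it at day 14 in all libraries. The log2 change of KO against WT was -0.66 ± 0.05 (edgeR adjusted p = 2.15e-08) at day 4 and 0.71 ± 0.06 (edgeR adjusted p = 2.17e-08) at day 14, and HET was also above WT, with 0.57 ± 0.06 (edgeR adjusted p = 2.73e-07, and 0.63 without HET replicate 2).

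Slc6a9 (GLYT1) carries glycine. Its exons overlap those of B4galt2, Ccdc24 and Gm17114 on the opposite strand, and reads of these genes cannot be told apart without strand. Slc6a9 stood at 91.3, 93.2 and 89.4 CPM in WT and 55.4, 53.2 and 50.4 CPM in KO at day 4, and at 15.4, 9.14 and 8.51 CPM in WT, 14.2, 11 and 14.7 CPM in HET and 38.7, 44.8 and 41.1 CPM in KO at day 14. WT replicate 1 of day 14 lay above the other WT and all HET libraries, and KO was above both groups. KO against WT was -0.78 ± 0.14 (edgeR adjusted p = 0.000113) at day 4 and 1.91 ± 0.16 (edgeR adjusted p = 5.1e-08) at day 14 on the log2 scale, and the interaction was 2.70 ± 0.21 (edgeR adjusted p = 1.86e-08). For HET against WT the value was 0.28 ± 0.17 (edgeR adjusted p = 0.182), or 0.39 without HET replicate 2, neither called, but it was called without WT replicate 1 of day 14 (0.60, edgeR adjusted p = 0.000557).

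Slc6a15 and Slc6a17 carry branched-chain and other neutral amino acids and are best known from neurons. Slc6a15 (chr10:103367783-103419377, GRCm38) stood at 12.6, 9.30 and 11.6 CPM in WT and 0.634, 0.799 and 0.440 CPM in KO at day 4, and at 2.38, 2.97 and 2.29 CPM in WT, 0.144, 0.0526 and 0.586 CPM in HET and 16.2, 20.2 and 17.2 CPM in KO at day 14. KO was the lower group at day 4 and the highest of all groups at day 14, without overlap, and HET lay below WT. KO against WT gave log2 changes of -4.17 ± 0.30 (edgeR adjusted p = 7.08e-10) at day 4 and 2.80 ± 0.23 (edgeR adjusted p = 2.7e-08) at day 14, with an interaction of 6.97 ± 0.38 (edgeR adjusted p = 7.62e-11), the largest in either direction among the genes with counts in every group. In HET the log2 change against WT was -3.20 ± 0.51 (edgeR adjusted p = 6.45e-06), or -2.77 without HET replicate 2. Slc6a17 stood at 341, 339.6 and 320.0 CPM in WT and 159, 164 and 157 CPM in KO at day 4, and at 103, 84.6 and 85.2 CPM in WT, 55.2, 37.9 and 54.3 CPM in HET and 123, 125 and 125 CPM in KO at day 14. The same order appeared, with KO below WT at day 4 (-1.06 ± 0.10, edgeR adjusted p = 1.81e-07) and above it at day 14 (0.45 ± 0.11, edgeR adjusted p = 0.00163), and HET below both (against WT -0.88 ± 0.11, edgeR adjusted p = 4.02e-06, or -0.73 without HET replicate 2). Of 5 listed neuron markers 2 were tested, and Rbfox3, Snap25 and Syp had at most 28 counts in any group. The 5 summed to 48.9 to 54.0 CPM in KO and 2.18 to 3.24 CPM in WT at day 4 and to 11.4 to 12.1 CPM in KO and 5.74 to 7.24 CPM in WT at day 14. Both tested markers, Map2 and Tubb3, which encode a microtubule-binding protein and a tubulin, were higher in KO at day 4 (log2 changes 6.36 ± 0.25, edgeR adjusted p = 2.23e-13 and 2.27 ± 0.23, edgeR adjusted p = 2.08e-07). At day 14 they split, with Map2 higher in KO (4.61 ± 0.34, edgeR adjusted p = 2.82e-10) and Tubb3 lower (-2.68 ± 0.30, edgeR adjusted p = 6.23e-07). Map2 gave most of the sum in KO on both days. The part of neuron markers in the levels of Slc6a15 and Slc6a17 was not tested.

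Slc6a2 (NET), the noradrenaline carrier, was highest in HET. Slc6a2 (chr8:92960079-93001667, GRCm38) stood at 0.114, 0.104 and 0.126 CPM in WT and 0.966, 1.12 and 0.688 CPM in KO at day 4, and at 0.513, 0.603 and 0.187 CPM in WT, 34.2, 26.4 and 35.2 CPM in HET and 3.17, 4.62 and 2.53 CPM in KO at day 14. All 3 HET libraries lay at 26.4 CPM or above, and no other library exceeded 4.62 CPM. HET against WT gave a log2 change of 6.19 ± 0.38 (edgeR adjusted p = 3.54e-11), or 6.30 without HET replicate 2. KO was also above WT, with 2.96 ± 0.58 (edgeR adjusted p = 3.38e-05) at day 4 and 2.96 ± 0.39 (edgeR adjusted p = 1.48e-06) at day 14. The summed neuron markers in HET were 1.92 to 4.05 CPM, below those of WT and KO at day 14.

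Slc43 genes include sodium-independent carriers of large neutral amino acids (Slc43a1, LAT3, and Slc43a2, LAT4) and a carrier of purine bases (Slc43a3), and Slc43a1 and Slc43a3 lie 73.0 kb apart on chromosome 2. Slc43a3 (chr2:84936579-84958509, GRCm38) stood at 37.4, 37.1 and 36.7 CPM in WT and 4.35, 5.66 and 4.95 CPM in KO at day 4, and at 19.6, 17.9 and 17.9 CPM in WT, 195, 149 and 196 CPM in HET and 13.9, 12.3 and 11.7 CPM in KO at day 14. The HET libraries lay at 149 CPM or above, and all others at 37.4 CPM or below. HET against WT gave a log2 change of 3.29 ± 0.10 (edgeR adjusted p = 1.39e-12), or 3.40 without HET replicate 2. KO was below WT at day 4, with -2.90 ± 0.12 (edgeR adjusted p = 3.54e-12), and at day 14, with -0.55 ± 0.11 (edgeR adjusted p = 0.000629). Slc43a1 stood at 3.34, 2.52 and 2.40 CPM in WT and 8.0, 9.11 and 8.64 CPM in KO at day 4, and at 7.28, 6.49 and 6.64 CPM in WT, 0.910, 0.841 and 1.71 CPM in HET and 0.930, 1.14 and 1.94 CPM in KO at day 14. KO was the higher group at day 4 and the lower one at day 14, where HET overlapped KO. KO against WT was 1.62 ± 0.20 (edgeR adjusted p = 3.09e-06) at day 4 and -2.33 ± 0.25 (edgeR adjusted p = 6.44e-07) at day 14, and HET against WT was -2.54 ± 0.27 (edgeR adjusted p = 4.44e-07, and -2.36 without HET replicate 2). Slc43a2 stood at 8.44, 7.82 and 7.67 CPM in WT and 9.60, 11.3 and 9.46 CPM in KO at day 4, and at 15.3, 15.3 and 14.5 CPM in WT, 43, 31.1 and 40.3 CPM in HET and 21.4, 20.9 and 22.5 CPM in KO at day 14. It was higher in HET than in WT, with 1.35 ± 0.11 (edgeR adjusted p = 3.17e-08, and 1.47 without HET replicate 2), and in KO than in WT, with 0.34 ± 0.11 (edgeR adjusted p = 0.015) at day 4 and 0.53 ± 0.11 (edgeR adjusted p = 0.00063) at day 14. Without KO replicate 2 of day 4 the call of that day was lost (0.25, edgeR adjusted p = 0.0861).

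**Figure D5:**
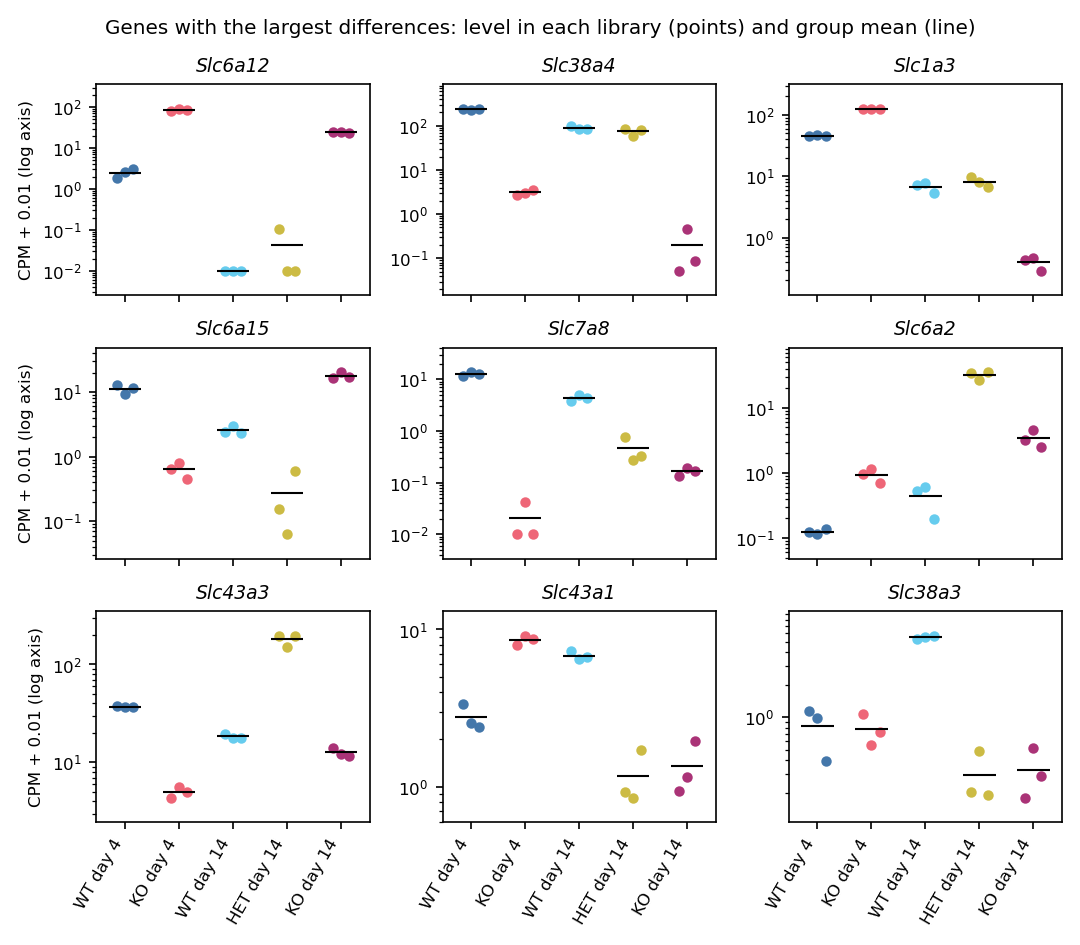
CPM plus 0.01 on a log axis for 9 genes with large differences, with a point for each library and a line at the group mean. Slc6a12 has no count in WT at day 14 (points at 0.01), Slc38a4 is low in KO at both days, Slc6a2 and Slc43a3 are highest in HET, and Slc1a3 in KO goes from the highest group at day 4 to the lowest at day 14.

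The 24 genes that were not tested hold carriers best known from brain, kidney and gut. No count was found for Slc7a10 and Slc7a12, and 21 of the 24 had at most 10 counts in any group. Of the other 3, Slc3a1, the heavy chain of the kidney cystine carrier, had 53 counts in WT at day 4, and its exons overlap Prepl. The proline carrier Slc6a7 had 19 in KO at day 4, and the glutamate carrier Slc1a1 had 13 in WT at day 14. The carriers of dopamine (Slc6a3) and serotonin (Slc6a4) were among the 21.

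Other genes of the pathways around the carriers were listed from general knowledge, with none of the 61 among them and with earlier results of these data known. Of 37 genes of the amino acid response (ATF4, its partners and targets such as amino acid synthesis enzymes and tRNA synthetases), 34 were lower and none higher in KO than in WT at day 4, with a median log2 change of -1.01, against 33.8% of all genes lower and 35.7% higher. At day 14, 17 were higher and 6 lower in KO, against 30.9% and 32.2% of all genes. The interaction called 34 higher and none lower (median 1.10), against 30.7% and 34.0% of all genes. In WT, 33 fell and 2 rose from day 4 to day 14, against 34.9% and 39.7% of all genes, and in KO 21 rose and 6 fell, against 30.8% and 30.1%. Chac1, which breaks down glutathione, had means of 244 ± 5.98 CPM in WT and 46.0 ± 1.30 CPM in KO at day 4, and of 71.2 ± 1.04, 44.9 ± 2.03 and 144 ± 2.1 CPM in WT, HET and KO at day 14, with WT highest at day 4 and KO highest among the groups of day 14, as for Slc7a11. Asns, the asparagine synthetase, stayed lower in KO at day 14 (log2 change -0.46 ± 0.05, edgeR adjusted p = 1.5e-06), and Atf3, a transcription factor of the response, was lower in KO at day 4 (-2.86 ± 0.06, edgeR adjusted p = 2.4e-15).

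For the other lists the counts are to be read against the 35.7% of all genes higher and 33.8% lower in KO at day 4, and 30.9% higher and 32.2% lower at day 14. The osmolyte and osmotic stress genes, 15 tested, held both directions at day 4 (8 higher and 5 lower in KO), and at day 14 10 were higher and 3 lower in KO. Akr1b3, the aldose reductase that makes sorbitol, had means of 159 ± 3.51 CPM in WT and 816 ± 14.4 CPM in KO at day 4 and of 37.9 ± 1.40 and 25.9 ± 1.72 CPM at day 14. Slc5a3, the myo-inositol carrier, fell with time in WT (-4.0 ± 0.09, edgeR adjusted p = 2.04e-14), and 12 of the 15 genes fell there, with 1 rising, against 34.9% and 39.7% of all genes. In KO, 10 of the 15 fell with time and 3 rose, against 30.1% and 30.8% of all genes. Bgn, a matrix proteoglycan that the list holds as an osmotic target, was lower in KO at day 4 (-3.48 ± 0.09, edgeR adjusted p = 3.92e-14) and at day 14 (-6.28 ± 0.17, edgeR adjusted p = 7.95e-15). Of 39 genes of lysosomal amino acid sensing and mTORC1, 19 were higher and 14 lower in KO at day 4, and 15 higher and 13 lower at day 14, with medians of 0.19 and 0.09. Of 35 genes of glutamine, glutathione and polyamine metabolism, 8 were higher and 18 lower at day 4, and 13 of each at day 14. Of 22 tested carriers of amino acids, peptides and monoamines outside the 61 genes, 9 were higher and 7 lower at day 4, and 8 higher and 7 lower at day 14. Among 13 tested partners and regulators of the carriers, 3 were higher and 7 lower in KO at day 4, and 7 higher and 3 lower at day 14. Since 69.5% and 63.1% of all genes were called, nothing is read from the numbers called in these last 4 lists. Nedd4l, a ubiquitin ligase that removes carriers from the membrane, was lower in KO at day 4 (log2 change -2.03 ± 0.08, edgeR adjusted p = 3.34e-12), with a positive interaction (3.46 ± 0.11, edgeR adjusted p = 8.06e-13). Sgk1, the kinase that opposes it, was lower in KO at day 4 (-1.09 ± 0.06, edgeR adjusted p = 6.1e-11) and higher at day 14 (1.13 ± 0.06, edgeR adjusted p = 1.38e-10).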

How the data were processed

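RNA-seq was done on 15 libraries in 5 groups, with the TruSeq RNA Library Prep Kit v2 per the labels' protocols, a kit that does not mark strand, so overlapping and antisense genes cannot be told apart. The deposited values are raw counts per Ensembl gene. TopHat2 2.1.0, HTSeq, DESeq2 and the build GRCm38.p4 are named per the submitters' processing notes. Not given in the sources used here: the annotation release, the HTSeq version and its strand setting. Every per-sample column was used.

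Gene IDs were matched to symbols, positions and summed exon lengths in the reference annotation: 46091 of 46603 matched, and the 512 others held 0.051% of counts. The 61 members and all gene lists were chosen with earlier results of these data known. One edgeR 4.0.16 quasi-likelihood model (R 4.3.3, limma 3.58.1) was fitted to all 15 libraries with TMM scaling and edgeR's filter on low counts, which kept 15296 genes. Adjusted p-values are Benjamini-Hochberg over those genes within each of 7 comparisons (threshold 0.05), and the common biological coefficient of variation was 8.33%. Standard errors are Wald errors of the fitted log2 changes, with the variance between libraries floored at the counting error. CPM uses TMM-scaled totals, and RPKM divides CPM by exon length. Where a group had at most 3 counts, a bound or a ratio with a 95% exact counting interval replaces the fitted fold, both for counting error only. Genes picked for single description were up to 4 called genes per direction and comparison. They had at least 5 CPM in the higher group and, except for the interaction, no overlap of libraries. A fixed list of carriers was added, and Slc38a10 and Slc6a8 were described in full outside this rule. Other members were described in brief. On simulated counts for KO against WT at day 14 (15025 genes), 82%, 86%, 98% and 100% of 50 genes each changed 1.5-, 2-, 4- and 8-fold were recovered, and 10 of 14825 unchanged genes were called. In the data 63.1% of genes were called in that comparison, so the simulation does not test scaling or false calls where most genes differ. Alternatives were DESeq2 1.42.0, RLE and upper quartile scaling, other filters, fits of the compared groups alone, a replicate block and leaving out each library. Promoters come from RefSeq (GRCm38.p6), matched by symbol for 43 of the 61 genes.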

Additional observations from a re-analysis of the deposited data

Results flagged for a closer look

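The edgeR test of the interaction of genotype and day called 20 of the 37 tested genes higher and 7 lower, against 64.7% of all genes. Of these, 17 that are described singly were flagged. The values are the log2 change of KO against WT at day 14 minus that at day 4. In the Slc1, Slc3 and Slc7 families it was 2.03 for Slc1a4, 1.52 for Slc1a5, 2.48 for Slc7a1, 0.82 for Slc7a5, 4.98 for Slc7a8, 4.19 for Slc7a11 and 1.66 for Slc3a2, while it was negative for Slc7a3 (-0.73) and Slc7a4 (-4.02), which are not among the 17. In the Slc38 family it was 1.72 for Slc38a2 and 0.30 for Slc38a9, and negative for Slc38a3 (-3.96) and Slc38a4 (-2.64). The call of Slc38a9 was lost without any one of 9 of the 12 libraries, with upper quartile scaling (0.16, edgeR adjusted p = 0.246) and with all genes of at least 1 count fitted (0.36, edgeR adjusted p = 0.122). Among the Slc6 genes it was 1.71 for Slc6a6, 2.70 for Slc6a9, 6.97 for Slc6a15 and 7.2 for Slc6a12, the last with no count in WT at day 14, so that its size depends on the prior count. It was negative for Slc1a3 (-5.56) and Slc43a1 (-3.95), the only 2 of the 37 tested genes called higher in KO at day 4 and lower at day 14. The value of Slc7a8 rests on 1 count in KO at day 4. Also called but not among the 17, besides Slc7a3 and Slc7a4, were Slc38a1 (2.50), Slc43a3 (2.35), Slc6a17 (1.51) and Slc6a8 (1.37). The same holds for Slc7a2 (0.84), Slc38a7 (0.77), Slc38a10 (0.18) and Slc36a2 (-2.55).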

How the results depend on the processing

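Over 259 pairs of a tested gene and a comparison, 209 kept their direction and their side of the threshold under every alternative run. Of the single alternatives 142 lost a call, 29 gained one and 2 reversed a direction, both without HET replicate 2: Slc38a2 in HET against WT (-0.0027 to 0.11, with -0.064 to 0.11 over all libraries left out in turn) and Slc7a2 in KO against HET (0.02 to -0.17). Leaving out 1 library at a time gave 8 to 11 genes higher and 19 to 20 lower in KO at day 4, 18 to 20 and 11 to 12 at day 14, 10 to 16 and 16 to 17 for HET against WT, 13 to 16 and 10 to 13 for KO against HET, 11 to 12 and 22 to 24 with time in WT, 14 to 16 and 13 to 15 with time in KO, and 18 to 20 and 6 to 7 for the interaction. Without 1 library, the log2 change with time in KO went from 1.37 to 2.71 for Slc7a7 (without KO replicate 3 of day 4) and from 2.0 to 1.30, not called, for Slc36a2 (without KO replicate 1 of day 14). Slc6a8 in KO against HET went from 0.14 to 0.08 without HET replicate 2, and Slc36a4 there from -0.30 to -0.47 without HET replicate 2 and to -0.19, not called, without HET replicate 1. The causes were not tested. Replicate numbers did not pair the libraries: over 30 same-numbered pairs the correlation of deviations ran from -0.15 to 0.179 (median -0.00506), and 1 pair exceeded 0.1. With the replicate block, KO against WT had 10 genes higher and 19 lower at day 4 and 19 and 13 at day 14, and 3 calls were lost and 2 gained over all comparisons. Upper quartile scaling moved the median log2 change of all genes from 0.08 to 0.24 with time in WT and from -0.08 to -0.22 for the interaction, and lost 9 and gained 3 calls among the transporters. Each gene's spread was estimated over all 15 libraries, HET replicate 2 included, also for comparisons without HET. With only the compared groups fitted, KO against WT at day 4 called 6031 genes higher and 5849 lower of 14555. HET against WT then called 3354 higher and 3342 lower of 14024. Among the transporters those fits lost 11 and gained 7 calls over all comparisons. Genes with few counts, such as Slc7a8 or Slc1a6 in KO, are limited by depth.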
